A study of Mus musculus with 15 samples.

Results

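Astroglia that had responded to Sonic hedgehog (Shh) were compared between the 2 regions of the adult mouse brain that keep neural stem cells, the subventricular zone (SVZ) of the lateral ventricle and the hippocampus. The comparison took every array whose title named sorted Gli1+ GFAP+ cells of either region, 5 arrays from SVZ and 5 from hippocampus, which are 10 of the 15 arrays of the study. The other 5 came from the cerebellum and are cited only as a yardstick. Mice of all groups carried Gli1-CreER, GFAP-GFP and the R26tdTomato reporter, were male and aged 6 to 8 weeks, and received 2 doses of 10 mg tamoxifen. Cells were taken 3 weeks later by microdissection, dissociation and fluorescence-activated sorting, and each array held a pool of 10 to 12 mice. The labels do not say whether the pools were separate cohorts, so p-values measure the spread between these pools. No group without the transgenes or without tamoxifen is part of the comparison.

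Shh is a secreted signal that binds the receptor Patched1 and thereby releases Smoothened, which activates the Gli transcription factors. Gli1 is itself a target of the pathway, so Gli1-driven CreER marks cells that were responding when tamoxifen was given, and tdTomato then stays on in those cells and their progeny. GFAP is an intermediate filament protein of astrocytes, and the GFAP promoter drives GFP both in ordinary astrocytes and in the astrocyte-like stem cells of the SVZ and of the dentate gyrus. Stem cells of the SVZ supply interneurons to the olfactory bulb, whereas those of the hippocampus supply granule neurons to the dentate gyrus.

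Affymetrix probe set values are given on a log2 scale, on which a difference of 1 is a 2-fold change. Differences are SVZ minus hippocampus, with the standard error (SE), and levels are means ± SD of 5 arrays unless single arrays are given. Of 18193 genes, between 3842 and 5007 read above a level of 3 on the SVZ arrays and between 3937 and 5272 on the hippocampus arrays (exact permutation test, two-sided p = 0.738). Probe sets for poly-A spike-in RNA averaged 12.56 ± 0.853 in SVZ and 12.45 ± 0.548 in hippocampus (exact permutation test, two-sided p = 0.722). SVZ 2 and hippocampus 2 had the lowest spike-in levels of their regions, 11.04 and 11.51, and the most genes above 3. SVZ 1 had the fewest. In pooled sorted cells, fewer cells of a type and less RNA per cell cannot be told apart.

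The identity of the sorted cells was checked first. Of 33 measured genes of a list of core astrocyte genes, all 33 had a mean level above 3 over the 10 arrays. Gja1, the connexin 43 gene, averaged 11.48 ± 0.20 in SVZ and 11.06 ± 0.41 in hippocampus, and the glutamate transporter gene Slc1a3 averaged 9.96 ± 0.31 and 9.64 ± 0.60. General neuron markers were dim on average, with a mean over 20 genes between 1.86 and 2.11 on the SVZ arrays and between 1.80 and 2.29 on the hippocampus arrays. Of the 20, 4 had a mean above 3, the brightest being Map2 (6.28 in SVZ and 5.78 in hippocampus). The mean of 24 endothelial and pericyte markers ran from 2.23 to 4.30 in SVZ and from 2.45 to 4.24 in hippocampus. RNA of microglia and of choroid plexus was present on some arrays and is described with those markers.

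Arrays of the SVZ resembled arrays of the hippocampus almost as much as they resembled one another. Over 4491 genes with a mean above 3 on the 10 arrays, the Pearson correlation between array pairs averaged 0.655 within SVZ (10 pairs, 0.567 to 0.777), 0.657 within hippocampus (10 pairs, 0.612 to 0.772) and 0.645 between the regions (25 pairs, 0.569 to 0.797). The mean within regions exceeded the mean between them by 0.011. This excess did not pass an exact permutation test over all ways to split the 10 arrays (two-sided p = 0.0952, where the smallest possible is 0.0079). Without SVZ 2, the array with the highest mean correlation with the other 9 (0.732), the excess was 0.019 (exact permutation p = 0.0317), and it was 0.016 with the mean of each gene's probe sets (exact permutation p = 0.0397). Region accounted for 12.1% of the variance over these arrays. Any split of the 10 arrays takes some share by chance, so this value alone does not show a regional part. The scores of the regions overlapped on the first principal component, which held 17.5%. On the second, which held 14.6%, every hippocampus array (8.9 to 28.5) lay above every SVZ array (-73.9 to 6.7). SVZ 4 (-73.9) and SVZ 1 (-32.8) were the farthest out there, whereas SVZ 2 (6.7) lay beside hippocampus 1 (8.9). The scores overlapped again on the third, which held 13.3%.

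**Figure D1:**
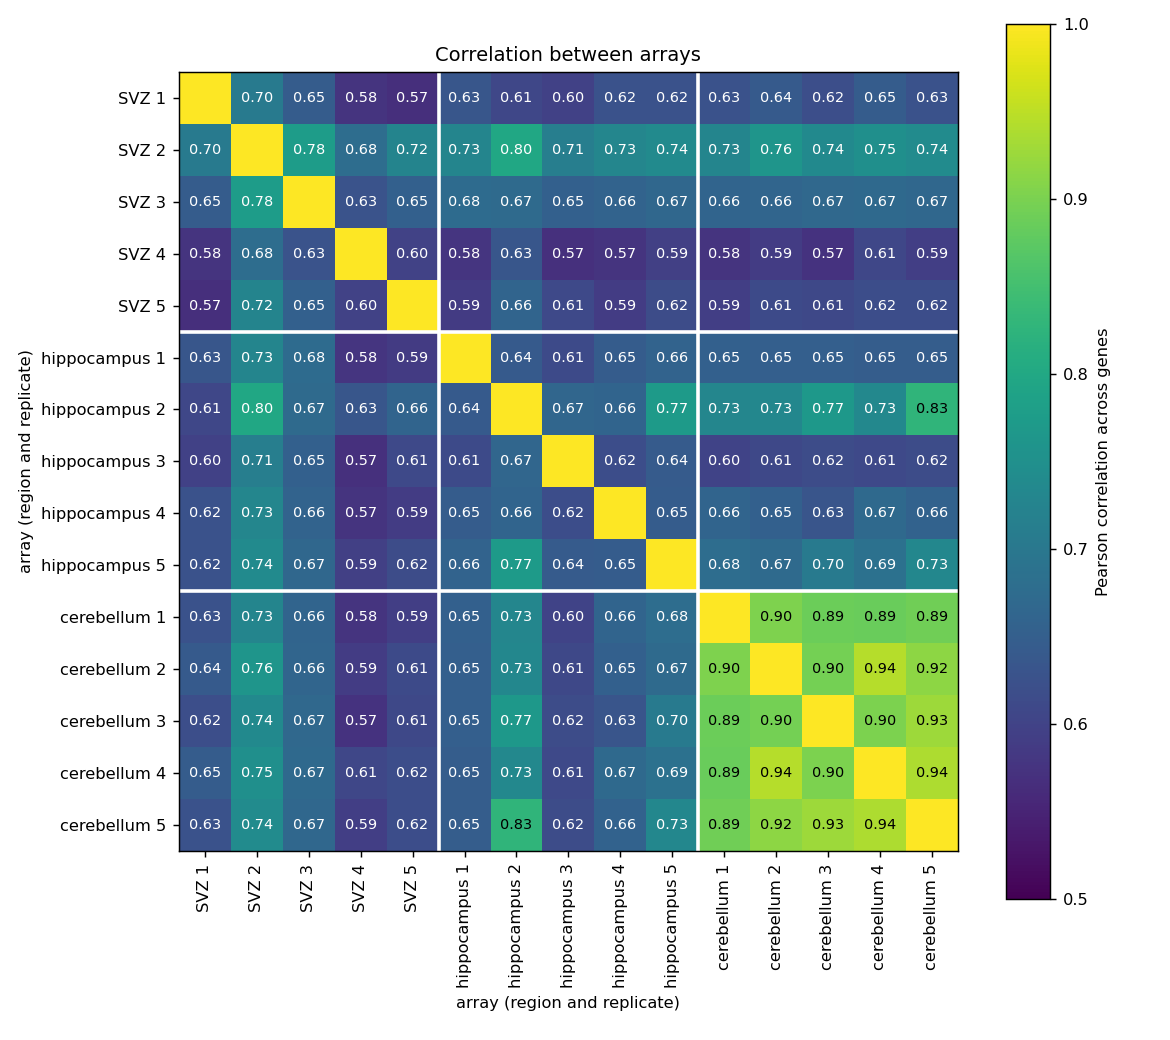
Pearson correlations across genes for every pair of the 15 arrays, with arrays in rows and columns, white lines between regions and colour giving the correlation. Pairs run from 0.567 to 0.777 within SVZ, 0.612 to 0.772 within hippocampus and 0.569 to 0.797 between them, ranges that overlap widely, while the cerebellum arrays correlate with one another at 0.886 to 0.944.

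Arrays of both forebrain regions spread more widely than those of the cerebellum. Cerebellum arrays correlated with one another at a mean of 0.909, against 0.648 with SVZ arrays and 0.673 with hippocampus arrays. The mean between SVZ and hippocampus arrays was 0.645. By single arrays, the forebrain regions were thus no closer to each other than to the cerebellum. Averaging the 5 arrays of each region gave a correlation of 0.888 between SVZ and hippocampus, against 0.788 for SVZ with cerebellum and 0.819 for hippocampus with cerebellum. These values describe arrays that share genes and processing, and no test was made of them. Among genes with a mean above 6, the median SD over the SVZ arrays was 0.67, over the hippocampus arrays 0.75 and over the cerebellum arrays 0.39.

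No gene passed the test between the stem cell regions. With limma and Benjamini-Hochberg adjustment over all 18193 genes, 0 genes (0%) reached an adjusted p under 0.05, and the smallest adjusted p was 0.154. At an unadjusted p under 0.05 there were 841 genes (4.62%), 414 higher in SVZ (2.28%) and 427 lower (2.35%). Chance alone gives a share of about 0.05 at that threshold, so this number is no more than chance would give. In both directions together, the share was 2.44% of genes with a mean under 2 and 7.49% at 2 to 4. It was 8.57% at 4 to 6, 8.38% at 6 to 8 and 10.3% over 8. Counts of list members below are to be read beside these shares. Arrays of the 2 regions did not overlap for 148 genes (0.813%), 68 higher in SVZ (0.374%) and 80 lower (0.44%). A difference over 4-fold at an unadjusted p under 0.01 was seen for 45 (0.247%), 19 higher (0.104%) and 26 lower (0.143%). With the cerebellum arrays in the fit, whose spread was smaller, 4 genes passed: Them4 (2.29, adjusted p = 0.0216), Gsdme (2.13, 0.0295) and Rab34 (1.61, 0.0295) higher in SVZ, and Kantr (-1.66, 0.00335) lower. Each rests on 1 probe set: the others of these genes gave -0.20 ± 0.18 for Them4, 0.034 ± 0.45 for Gsdme, 0.15 ± 0.43 for Rab34, and -0.29 ± 0.26, 0.10 ± 0.22 and -0.71 ± 1.14 for Kantr, each with an unadjusted p in limma over 0.05. In fits of the same size against the cerebellum, 1247 genes (6.85%) passed for SVZ and 1056 (5.8%) for hippocampus. The smaller spread of the cerebellum arrays makes genes easier to call, so these counts and the 0 above are not like for like.

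Kantr, a long noncoding RNA gene named after its values were seen, had the smallest p. Its SVZ arrays read 5.12, 4.78, 5.00, 4.75 and 4.46 in replicate order, and its hippocampus arrays 6.37, 6.21, 6.21, 6.80 and 6.84. All SVZ arrays lay below all hippocampus arrays, by a mean of -1.66 ± 0.20 (SE), a 3.17-fold difference, with an unadjusted p of 8.45e-06 and an adjusted p of 0.154 in limma. None of its other probe sets showed a difference of that size, and 1 had the opposite sign. Pea15a, which encodes a death-effector-domain adaptor abundant in astrocytes and was also named after its values were seen, averaged 7.83 ± 0.26 in SVZ and 6.42 ± 0.40 in hippocampus (1.42 ± 0.22, adjusted p = 0.502).

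How far likeness was shown depended on the level of a gene and on which genes entered the fit. The 95% interval of the difference lay within a log2 difference of 1 in either direction for 9237 genes (50.8%) and within 2 for 14694 (80.8%). Of the 9237, 8493 had a mean level under 2, near background, where a narrow interval says little. Of the 1010 genes with a mean above 6, the interval lay within 1 for 220 (21.8%) and within 2 for 770 (76.2%). Among them the median absolute difference was 0.39 beside a median SE of 0.45, and 111 genes (11%) differed by more than 1. Among the 271 genes with a mean above 8 it lay within 1 for 117 (43.2%). These shares fell when dim genes, with means under 3 in both regions, were left out of the fit, which shares its estimate of spread over the genes. The same 1010 genes then had 24 with an interval within 1 (2.38%), with a median SE of 0.55, and the 271 had 15 (5.54%).

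**Figure D2:**
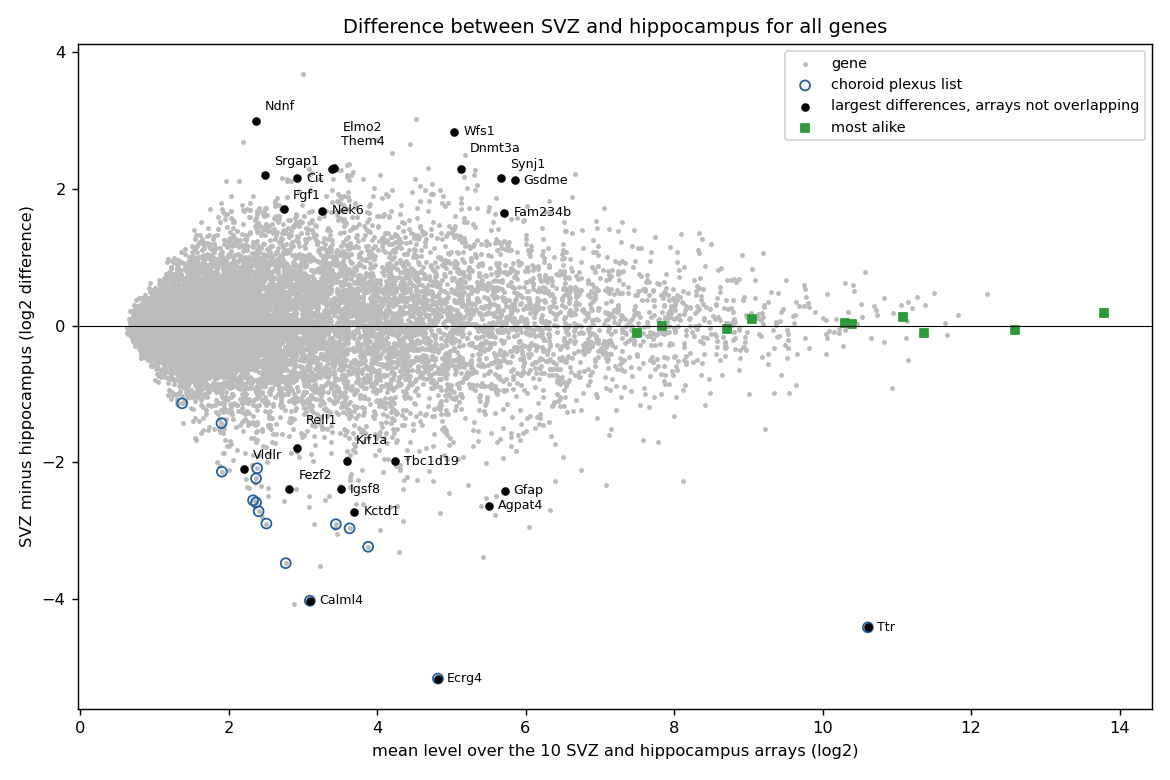
Difference between SVZ and hippocampus (log2, y axis) against the mean level over the 10 arrays (log2, x axis), 1 point a gene, with choroid plexus markers ringed, the 24 leading genes in black and the 10 most alike genes as squares. Ecrg4 at -5.17, Ttr at -4.42 and Calml4 at -4.03 lie lowest among the named genes, and the squares lie between -0.11 and 0.18.

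The brightest genes were largely shared. Of the 1819 genes in the top 10% by mean level in each region, 1519 were in both lists (83.5% of each). Of the 300 found in the SVZ list alone, 284 stood in the top 20% in hippocampus, and of the 300 in the hippocampus list alone, 260 did so in SVZ. The SVZ list shared 1405 genes (77.2%) with the cerebellum list, and the hippocampus list 1454 (79.9%). Brightness also depends on the probe set, which all lists share.

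The 10 genes with a mean above 6 whose interval reached least far from 0 are named as most alike. Cd81, a tetraspanin gene, read 10.25, 10.44, 10.28, 10.53 and 10.08 in SVZ and 10.30, 10.14, 10.19, 10.39 and 10.40 in hippocampus. The arrays interleaved, and the 95% interval of the difference ran from -0.29 to 0.35. For Clu, the clusterin gene, the interval ran from -0.46 to 0.24, and for Apoe, the main lipid carrier made by astrocytes, from -0.50 to 0.39. Hmgcs1, an enzyme of cholesterol synthesis, had an interval from -0.41 to 0.46, and Sdc4, a heparan sulfate proteoglycan gene, from -0.47 to 0.47. Also among the 10 were the nuclear RNA Malat1, the chaperone gene Hspa8, the creatine kinase gene Ckb, the mitochondrial channel gene Vdac2 and AY036118. The largest of their differences was 0.18 ± 0.13 (Malat1). Their intervals reached 0.35 to 0.50 from 0, and 0.90 to 1.04 with dim genes left out of the fit.

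Core astrocyte genes mostly lay close to 0, and Gfap did not. Of 33 measured, 26 read higher in SVZ and 7 lower, with a median difference of 0.24 beside -0.004 over all genes. The interval lay within 1 for 20 of them (5 with dim genes left out of the fit) and within 2 for 31, and 32 were in the top 10% of both regions. The glutamate transporter gene Slc1a2 differed by 0.016 ± 0.35, the FGF receptor gene Fgfr3 by 0.014 ± 0.36, and the glycolytic enzyme gene Aldoc by 0.084 ± 0.24. At an unadjusted p under 0.05 there were 2, Acsl3, a fatty acid activating enzyme (0.66 ± 0.24), and Gfap.

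Gfap is the gene whose promoter drove the GFP of the sort. Its arrays read 2.69, 4.83, 4.65, 5.46 and 4.91 in SVZ and 6.83, 6.46, 7.60, 7.56 and 6.20 in hippocampus. Every hippocampus array lay above every SVZ array. The difference was -2.42 ± 0.51, 5.36-fold, with an unadjusted p of 0.000797 and an adjusted p of 0.954 in limma. The cerebellum arrays spanned 3.26 to 6.03. The other probe sets of Gfap gave -1.75 ± 0.70 and -1.05 ± 0.48, in the same direction.

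Gli1, the other gene of the sort, and the Shh receptor gene Ptch1 overlapped between the regions. Gli1 read 1.79, 2.73, 5.06, 2.12 and 2.30 in SVZ and 2.12, 2.19, 2.07, 1.54 and 6.22 in hippocampus. Each region had 1 bright array, SVZ 3 and hippocampus 5, and the remaining arrays were dim. The difference was -0.028 ± 0.94, an interval from -2.12 to 2.07, and without hippocampus 5 it was 0.82. Ptch1 was well expressed throughout, at 7.13, 7.63, 7.63, 7.70 and 5.96 in SVZ and 7.48, 6.21, 7.33, 7.57 and 6.65 in hippocampus. Its arrays overlapped, with a difference of 0.16 ± 0.40 (interval -0.72 to 1.05). Its other probe sets, both dimmer, gave 1.44 ± 0.65 (unadjusted p = 0.0522 in limma) and -0.042 ± 0.25, and the mean of the probe sets gave 0.52.

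The Shh pathway as a list was centred near 0. Of 20 measured, Gli1 and Ptch1 included, 9 read higher in SVZ and 11 lower, with a median of -0.031, and 1 was at an unadjusted p under 0.05. That was Cdon, a co-receptor (-0.63 ± 0.27), which averaged 0.99 ± 0.093 and 1.63 ± 0.61 and so was dim in both regions. Smo, the transducer Smoothened, ranged from 1.39 to 8.43 over the SVZ arrays and from 2.07 to 7.05 over the hippocampus arrays (-0.77 ± 1.43). Such a spread leaves an interval from -3.95 to 2.41. The transcription factor genes Gli2 and Gli3 differed by -0.64 ± 0.73 and 1.16 ± 0.75, and Gas1, a co-receptor gene, by -0.19 ± 0.60.

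The largest separations were examined gene by gene, although none passed the adjusted test. Among genes at an unadjusted p under 0.01 with non-overlapping arrays and a mean of at least 3 in the higher region, 30 were higher in SVZ and 27 lower, and the 12 largest of each direction are named. Their adjusted p in limma lay between 0.415 and 0.954. Further probe sets existed for 20 of these 24 genes, 38 of them, and 28 gave the sign of the chosen one, 7 of these with an unadjusted p under 0.05. With the mean of each gene's probe sets, 17 of the 24 differences moved by more than 1.5 times, 11 of those higher in SVZ and 6 of those lower. No other alternative moved any of the 24 that far.

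The lower side was led by choroid plexus genes. Ecrg4 encodes the precursor of a secreted peptide and is abundant in choroid plexus epithelium. Its SVZ arrays read 3.72, 1.12, 0.66, 3.20 and 2.47 and its hippocampus arrays 4.42, 10.04, 6.86, 6.20 and 9.52. Even the lowest hippocampus array exceeded the highest SVZ array, and the hippocampus arrays themselves were scattered. The difference was -5.17 ± 1.09, 36.1-fold, and its other probe sets gave -3.43 ± 1.28 and -2.91 ± 1.11. Ttr, the thyroid hormone carrier transthyretin, read 8.46, 7.01, 5.96, 10.35 and 10.21 in SVZ and 11.18, 13.94, 12.83, 12.30 and 13.83 in hippocampus. The regions did not overlap, and the 4 Ttr probe sets differed by between -4.89 and -4.42. Calml4, a calmodulin-like protein gene, stayed between 0.78 and 1.52 on the SVZ arrays, whereas the hippocampus arrays read 2.16, 8.45, 5.15, 2.46 and 7.31 (-4.03 ± 1.14, 16.3-fold).

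Ecrg4 and Calml4 were both highest on hippocampus 2 and hippocampus 5, and Gfap separated the regions in another way, so their promoter windows are shown, from 250 bases before to 50 after the transcription start in RefSeq (GRCm38.p6). Ecrg4 lies at chr1:43730352-43730651 on the plus strand, Calml4 at chr9:62857854-62858153 on the plus strand and Gfap at chr11:102897151-102897450 on the minus strand. Capitals mark a match to GTTGCNA, a partial site of RFX factors, which regulate genes of ciliated and choroid cells.
Ecrg4: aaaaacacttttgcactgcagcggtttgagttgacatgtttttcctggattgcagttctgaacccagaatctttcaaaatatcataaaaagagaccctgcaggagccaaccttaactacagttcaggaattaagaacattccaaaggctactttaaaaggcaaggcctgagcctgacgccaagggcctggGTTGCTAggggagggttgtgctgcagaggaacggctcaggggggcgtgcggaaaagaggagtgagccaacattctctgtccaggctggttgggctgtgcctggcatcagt
Calml4: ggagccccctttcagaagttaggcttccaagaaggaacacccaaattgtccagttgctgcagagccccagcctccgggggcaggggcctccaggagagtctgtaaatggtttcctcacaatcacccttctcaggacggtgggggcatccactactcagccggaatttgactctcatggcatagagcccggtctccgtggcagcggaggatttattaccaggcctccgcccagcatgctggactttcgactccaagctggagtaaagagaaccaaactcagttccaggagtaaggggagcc
Gfap: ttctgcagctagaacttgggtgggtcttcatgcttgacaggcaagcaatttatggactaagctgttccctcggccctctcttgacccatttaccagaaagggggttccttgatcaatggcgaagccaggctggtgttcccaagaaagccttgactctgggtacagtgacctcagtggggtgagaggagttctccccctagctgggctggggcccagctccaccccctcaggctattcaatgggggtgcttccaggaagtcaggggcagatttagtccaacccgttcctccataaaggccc
Both strands were searched for GTTGCNA and for TAATCC, the core of the site of OTX factors, whose member Otx2 is a choroid plexus regulator. The only match in these windows was GTTGCNA in Ecrg4, beginning at base -60 from the start. Of all 32851 promoter windows in the reference table, 10.4% held GTTGCNA and 7.06% held TAATCC. Of 12 choroid plexus markers with a window, 2 held each motif in any of their windows. This counts genes, some with several windows, and is not like for like with the shares of single windows. A match describes letters and not binding, and the windows without one say only that these letters are not in them.

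Choroid plexus markers had the median farthest from 0 of the 32 lists. All 16 measured members read lower in SVZ, with a median of -2.81, and 11 had an unadjusted p under 0.05 where 2.35% of all genes did so in that direction. Arrays did not overlap for 3 of 16, beside 0.44% of all genes. None passed the adjusted test. The mean of the 16 genes was 2.01, 1.44, 1.45, 2.06 and 2.05 on the SVZ arrays and 2.20, 8.03, 3.50, 3.31 and 6.34 on the hippocampus arrays. Hippocampus 2 and hippocampus 5 were far above the rest, hippocampus 1 was barely above the SVZ arrays, and the cerebellum arrays spanned 1.66 to 7.38. Kcne2, a potassium channel subunit of the epithelium, averaged 1.03 ± 0.35 in SVZ and read 1.40, 7.61, 4.07, 2.08 and 7.41 in hippocampus. Folr1, a folate carrier gene, read 0.88, 7.26, 1.48, 3.15 and 7.04 in hippocampus, and Otx2 read 1.14, 6.69, 1.72, 1.81 and 5.78, both with SVZ arrays no higher than 1.59.

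The count of 11 depended on single arrays and fell by more than 1.5 times on leaving out any of 7. It was 6 without SVZ 1, 6 without SVZ 2, 5 without SVZ 3, 6 without SVZ 4, 5 without SVZ 5, 6 without hippocampus 2 and 6 without hippocampus 5. Leaving out the others gave 14 without hippocampus 1, 12 without hippocampus 3 and 10 without hippocampus 4. All 16 members stayed negative each time, with medians from -3.48 to -1.87. Hippocampus 2 also had the highest mean of ependymal markers (3.41, against 1.78 to 2.74 on the other hippocampus arrays) and of leptomeningeal fibroblast markers (4.56, against 1.70 to 3.01). Of 22 ependymal genes, 2 were lower at an unadjusted p under 0.05, Dynlrb2, a dynein light chain (-2.38 ± 0.77), and Mia (-2.57 ± 0.87), and Foxj1, the master gene of motile cilia, averaged 1.62 ± 0.58 and 1.89 ± 1.30. Of 15 leptomeningeal genes, 2 were lower, the dim matrix gene Lum (-0.41 ± 0.15) and the growth factor gene Igf2 (-2.97 ± 1.06, and -1.98 without hippocampus 2), which is also on the choroid plexus list. The part of such cells in the other differences was not tested.

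**Figure D3:**
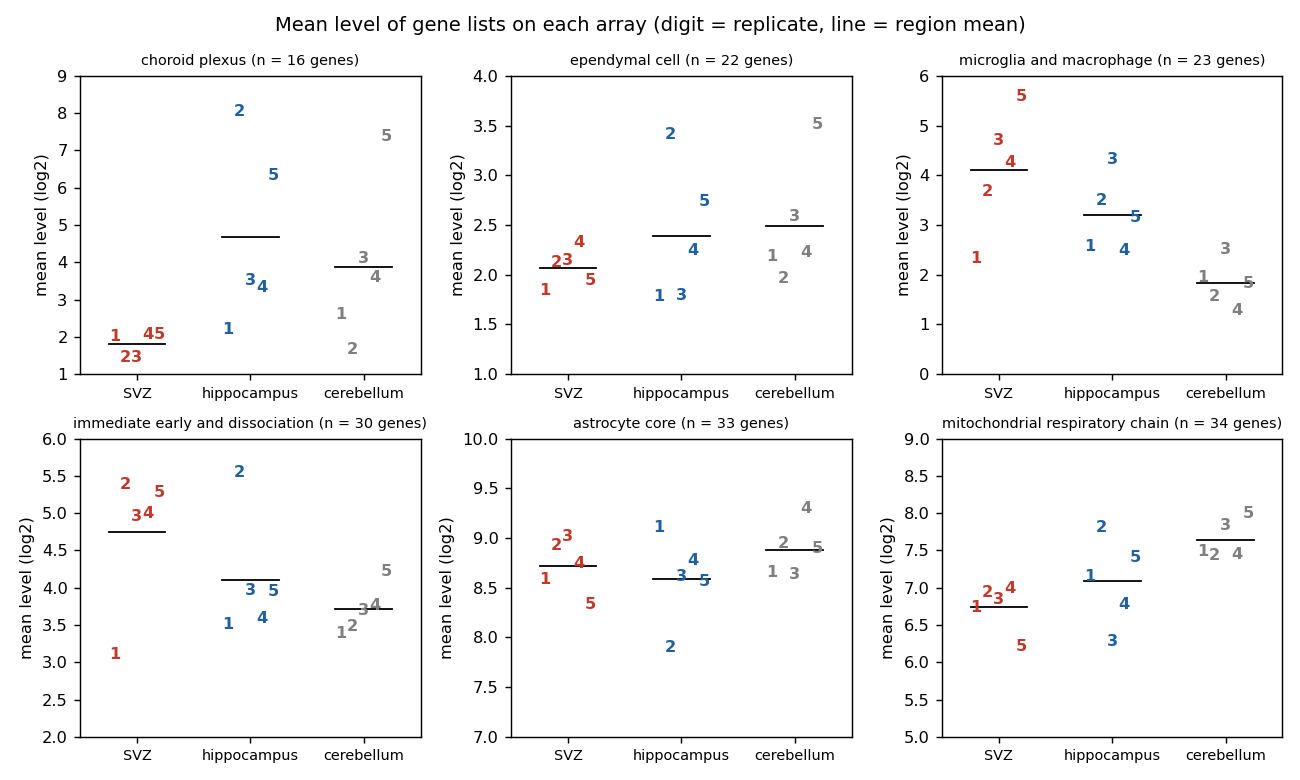
Mean level of 6 gene lists (log2, y axis) on every array of each region (x axis), with digits for replicates and lines for region means. The 5 SVZ arrays hold choroid plexus means of 1.44 to 2.06 against 2.20 to 8.03 in hippocampus, whereas astrocyte core means overlap, at 8.33 to 9.01 and 7.90 to 9.11.

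Away from choroid plexus, the other leading genes lower in SVZ came from unrelated classes. Fezf2, a forebrain transcription factor gene of cortical and hippocampal lineages, read 1.61, 1.72, 1.88, 1.02 and 1.85 in SVZ and 4.20, 2.67, 3.36, 5.09 and 4.77 in hippocampus. These groups did not overlap, as the naming rule required, and the nearest arrays read 1.88 and 2.67. The difference was -2.40 ± 0.44, 5.29-fold, with an adjusted p of 0.700 in limma, and the gene has 1 probe set. Kctd1, which encodes a BTB-domain protein, averaged 2.33 ± 1.25 and 5.06 ± 0.94 (-2.73 ± 0.64), and Agpat4, a phospholipid acyltransferase gene, 4.19 ± 1.44 and 6.83 ± 0.99 (-2.64 ± 0.71). Igsf8, an immunoglobulin-family partner of tetraspanins, stood at -2.40 ± 0.54. For the kinesin gene Kif1a (-1.98 ± 0.58), the reelin receptor gene Vldlr (-2.10 ± 0.62), Tbc1d19 (-1.99 ± 0.61) and Rell1 (-1.79 ± 0.39), the mean of probe sets gave -0.90, -0.86, -1.14 and -0.64. Kctd1 and Agpat4 stood at -1.76 and -1.43 in that way.

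Genes that read higher in SVZ included a secreted factor, a DNA methyltransferase and regulators of the cytoskeleton. Ndnf, a secreted neurotrophic factor gene, read 1.81, 3.95, 5.19, 4.20 and 4.18 in SVZ and 0.88, 1.71, 0.44, 0.39 and 0.89 in hippocampus. SVZ 1 lay just above hippocampus 2, and the other 4 SVZ arrays were well above (3.00 ± 0.56, 8.02-fold, adjusted p = 0.700). Wfs1, which encodes the endoplasmic reticulum protein wolframin and is also a marker of hippocampal pyramidal neurons, read 7.02, 5.92, 6.50, 6.29 and 6.57 in SVZ and 0.84, 5.40, 3.02, 5.71 and 3.13 in hippocampus. Its SVZ values were tight and its hippocampus values scattered (2.84 ± 0.82). Dnmt3a, the de novo DNA methyltransferase, averaged 6.27 ± 0.71 and 3.98 ± 0.99 (2.29 ± 0.50).

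Them4 and Gsdme had the smallest p-values of the 12. Them4, an acyl-CoA thioesterase gene, read 4.25, 4.13, 5.03, 5.12 and 4.19 in SVZ and 2.72, 2.35, 1.37, 2.87 and 1.97 in hippocampus (2.29 ± 0.33, adjusted p = 0.415). Gsdme, the pore-forming protein gasdermin E, read 7.31, 6.77, 6.78, 7.75 and 6.01 against 4.41, 4.79, 4.26, 5.60 and 4.89 (2.13 ± 0.36, adjusted p = 0.502). Both were brighter still in the cerebellum, where arrays spanned 7.20 to 8.07 for Them4 and 8.77 to 9.33 for Gsdme. Fgf1, a growth factor gene, averaged 3.61 ± 0.80 in SVZ and a uniform 1.89 ± 0.13 in hippocampus (1.71 ± 0.34).

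The remaining genes on the SVZ side were Elmo2, an activator of Rac-driven engulfment and migration (2.30 ± 0.54), Srgap1, a GTPase-activating protein of Slit and Robo guidance (2.20 ± 0.58), the cytokinesis kinase gene Cit (2.16 ± 0.50), the lipid phosphatase gene Synj1 (2.16 ± 0.65), the mitotic kinase gene Nek6 (1.68 ± 0.44) and Fam234b (1.65 ± 0.39). Several shrank with the mean of probe sets, to 0.30 for Synj1, 0.68 for Cit, 0.69 for Dnmt3a, 0.61 for Nek6 and 0.79 for Fam234b. Ndnf then stood at 1.45, Elmo2 at 1.45, Srgap1 at 1.15, Gsdme at 1.08, Them4 at 1.04 and Fgf1 at 0.93. Wfs1 has 1 probe set, so nothing of this kind could be compared.

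**Figure D4:**
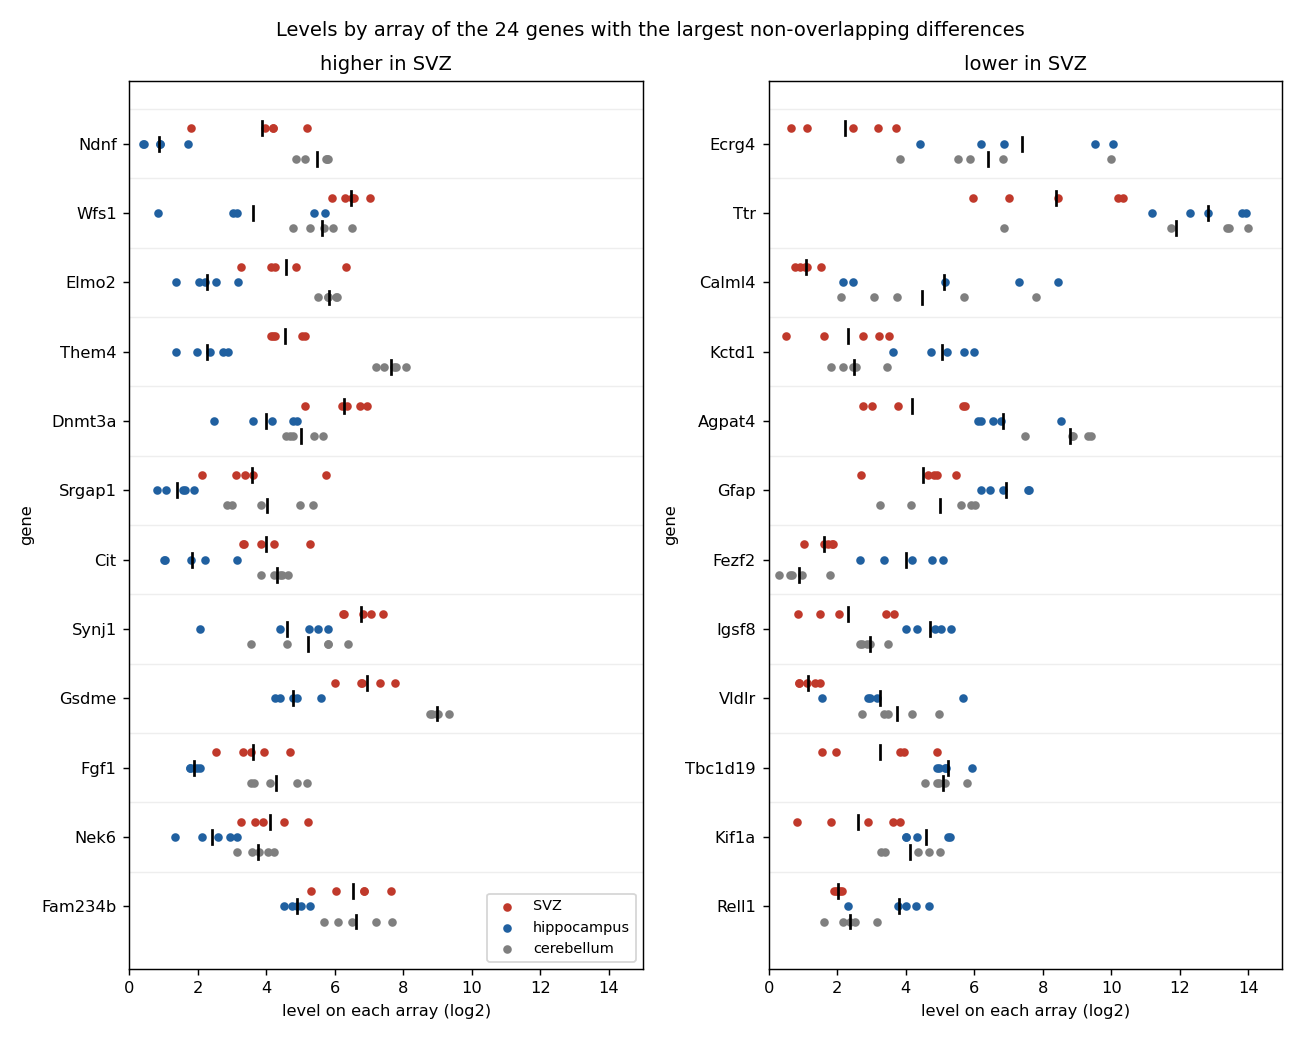
Level on each array (log2, x axis) of the 12 leading genes higher in SVZ (left) and the 12 lower (right), with points for arrays, colours for regions and bars for region means. SVZ and hippocampus points do not overlap for any of these genes by the rule that named them, and Ecrg4 shows the widest gap, with means of 2.23 and 7.41.

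Stem cell and radial glia genes showed single members apart and no common shift. Of 35 measured, 21 read higher in SVZ and 14 lower, with a median of 0.11. At an unadjusted p under 0.05 there were 3 higher and 2 lower, beside 2.28% and 2.35% of all genes. Id3, an inhibitor of differentiation that BMP signals induce, read 6.81, 6.53, 7.05, 7.22 and 6.73 in SVZ and 5.82, 6.50, 4.99, 5.41 and 5.92 in hippocampus. The groups touched without overlapping (1.14 ± 0.28, adjusted p = 0.954). Hopx, a homeodomain gene of quiescent dentate stem cells, read 7.01, 6.24, 4.98, 3.53 and 3.12 against 7.80, 7.60, 6.95, 8.15 and 7.89. SVZ 1 alone reached into the hippocampus range, and the difference was -2.70 ± 0.71, 6.51-fold. Hopx was brighter still in the cerebellum, at 10.13 ± 0.30, so its level was not particular to the hippocampus. Egfr, the receptor that marks activated SVZ stem cells and transit amplifying cells, read 4.94, 5.55, 5.57, 6.29 and 7.94 against 4.60, 1.85, 4.73, 4.69 and 5.11. SVZ 1 overlapped hippocampus 5, and hippocampus 2 was far below the rest (1.86 ± 0.72, and 0.35 with the mean of probe sets).

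Other members of the list lay closer together. Nr2e1, the orphan receptor Tlx of adult stem cells, averaged 7.51 ± 1.29 in SVZ and 6.71 ± 1.63 in hippocampus (0.80 ± 0.84), beside a cerebellum mean of 1.66 ± 1.16. Sox2 averaged 6.95 ± 1.00 and 6.06 ± 0.40 (0.89 ± 0.45), and Vim, the filament gene vimentin, 7.72 ± 1.36 and 6.19 ± 1.70. Nes, the nestin gene, was dim in both, at 1.47 ± 0.18 and 1.73 ± 0.33.

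Transcription factors that pattern the forebrain were compared as marks of regional identity. Of 28 ventral and SVZ factors, 2 were higher and 1 lower at an unadjusted p under 0.05, beside 2.28% and 2.35% of all genes. Their median was 0.046. Meis2, a homeobox gene of striatal and olfactory lineages, read 1.71, 3.71, 4.60, 4.30 and 4.91 in SVZ and 1.13, 2.63, 0.95, 3.05 and 0.89 in hippocampus. SVZ 1 lay within the hippocampus range (2.12 ± 0.67, and 0.82 with the mean of probe sets). Nkx6-2 averaged 3.31 ± 0.88 and 1.98 ± 0.27 (1.33 ± 0.39), with arrays that only just did not overlap. Pax6, named after its values were seen, was scattered in both regions, at 0.94, 4.87, 4.38, 1.34 and 1.67 in SVZ and 9.25, 4.60, 6.84, 2.28 and 6.84 in hippocampus (-3.32 ± 1.30). Gsx2 and the Dlx1, Dlx2 and Dlx5 genes of olfactory interneuron lineages were dim in both regions, with means between 0.69 and 1.41.

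Of 28 dorsal and hippocampal factors, 20 read lower in SVZ (median -0.16), and Fezf2 was the 1 member at an unadjusted p under 0.05. Emx2 (0.024 ± 0.36) and Lhx2 (-0.42 ± 0.62) did not separate the regions, and their cerebellum means were 0.80 ± 0.22 and 0.91 ± 0.65. Prox1, the granule neuron factor, averaged 1.11 ± 0.51 and 1.92 ± 1.01. In the transit amplifying and neuroblast list, 3 of 29 were higher at an unadjusted p under 0.05, beside 2.28% of all genes. They were Meis2, Egfr and Celf4 (0.50 ± 0.21). Dcx, the doublecortin gene of migrating neuroblasts, was dim, at 1.34 and 1.10. Cell cycle genes gave 1 of 45, Plk1, a mitotic kinase (0.61 ± 0.23), at 1.54 and 0.94.

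Signalling lists had medians near 0, and the FGF and EGF list was the 1 of them whose mean level did not overlap between the regions. In the BMP list 4 of 28 genes were higher at an unadjusted p under 0.05, beside 2.28% of all genes, and 0 lower (median 0.024). Genes near background, of which fewer pass, hold that all-gene share down. The 4 were Id3, Id2 (1.05 ± 0.45), the ligand gene Gdf10 (1.56 ± 0.69) and the receptor gene Bmpr1a (0.93 ± 0.24, and 0.12 with the mean of probe sets). In the Notch list 3 of 27 were higher and 1 lower, beside 2.28% and 2.35% of all genes. The coactivator gene Maml2 stood at 1.70 ± 0.49, the glycosyltransferase gene Lfng at 1.05 ± 0.33 (0.50 with the mean of probe sets) and the target gene Hey1 at 1.75 ± 0.61, while the target gene Hes1 stood at -0.94 ± 0.36 with means of 1.41 and 2.35. Hes5, the Notch target typical of stem cells, averaged 3.96 and 4.30. In the FGF and EGF list 5 of 32 were higher, beside 2.28% of all genes, and 0 lower (median 0.10). The list mean ran from 2.77 to 3.01 on the SVZ arrays and from 2.22 to 2.55 on the hippocampus arrays, so that every SVZ array lay above every hippocampus array. Of the 32 lists, means did not overlap for this one and, in the other direction, for choroid plexus. The 5 were Fgf1, Egfr, the feedback inhibitors Spry1 (0.53 ± 0.21) and Dusp6 (1.95 ± 0.87), and Fgf13 (0.93 ± 0.39). With the mean of probe sets Fgf1 stood at 0.93 and Egfr at 0.35. Spry1 (1.78 and 1.25) and Fgf13 (1.83 and 0.90) were dim in both regions. Dusp6 is also on the immediate early list and is counted again there. The Wnt list gave 1 of 45, the receptor gene Fzd5, at 3.46 ± 0.99 against 1.90 ± 0.27 (1.56 ± 0.43).

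Transport, matrix and lipid genes differed in few members. Of 27 transporter and receptor genes for glutamate and GABA, 21 read higher in SVZ (median 0.30). At an unadjusted p under 0.05, 3 were higher, beside 2.28% of all genes. These were the glycine transporter gene Slc6a9 (7.56 and 5.68, 1.88 ± 0.61), the GABA transporter gene Slc6a11 (6.87 and 5.60, 1.27 ± 0.53) and the glutamine transporter gene Slc38a3 (0.75 ± 0.30, and 0.28 with the mean of probe sets). Of 46 matrix genes, Sparc (9.43 and 8.40, 1.03 ± 0.25) and the proteoglycan gene Ncan (8.51 and 7.58, 0.93 ± 0.35) were higher at that threshold and the dim genes Acan and Lum lower. Among 28 cholesterol and lipid genes 2 were higher, the desaturase gene Scd2 (0.66 ± 0.25) and the lipid exporter gene Abca1 (0.87 ± 0.34). Axon guidance and adhesion genes gave 2 higher and 1 lower of 65, led by the semaphorin receptor gene Nrp1 at 2.23 ± 0.76. With the mean of probe sets Sparc stood at 0.62, Scd2 at 0.42, Abca1 at 1.46 and Nrp1 at 1.46. Reactive astrocyte genes gave 1 higher of 24, the copper carrier gene Cp (1.93 ± 0.79, and 0.76 with the mean of probe sets), and 1 lower, Gfap. Of 20 potassium channel genes none reached it.

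Respiratory chain and ribosomal genes leaned the other way. Of 34 respiratory chain genes, 26 read lower in SVZ with a median of -0.31. At an unadjusted p under 0.05, 3 were lower, beside 2.35% of all genes. They were the cytochrome oxidase subunits Cox8a (-1.50 ± 0.51, and -0.90 with the mean of probe sets), Cox6a1 (-0.99 ± 0.37) and Cox6c (-0.99 ± 0.44). The list mean ran from 6.21 to 6.99 on the SVZ arrays and from 6.28 to 7.81 on the hippocampus arrays, highest on hippocampus 2 and hippocampus 5, the arrays with the most choroid plexus RNA. Of 31 cytosolic ribosomal genes, 24 read lower (median -0.22), with none at that threshold. The part of choroid plexus RNA in these shifts was not tested. Cilium genes gave 2 lower of 28, Ift46 (-1.46 ± 0.51) and Bbs5 (-0.63 ± 0.28).

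Immediate early genes, which respond to activity and to tissue dissociation, read higher in SVZ for 23 of 30 (median 0.62). At an unadjusted p under 0.05, 6 were higher, beside 2.28% of all genes, a share that genes near background hold down. Dusp6, also on the FGF and EGF list, is among them. Nr4a3 was lower (-0.73 ± 0.25, and -0.47 with the mean of probe sets). Nr4a1, a nuclear receptor gene, read 3.29, 4.32, 4.27, 5.94 and 6.19 in SVZ and 2.19, 5.13, 1.90, 1.59 and 1.95 in hippocampus (2.25 ± 0.77). Hippocampus 2 stood among the SVZ arrays for Nr4a1. Its list mean of 5.54 lay above every SVZ array (3.10 to 5.38) and above the other hippocampus arrays (3.51 to 3.96). SVZ 1, at 3.10, had a list mean below every hippocampus array. Fos averaged 9.02 ± 0.90 and 7.66 ± 0.87 (1.36 ± 0.52), and the stress factor gene Klf4 5.58 ± 0.90 and 3.43 ± 1.84 (2.15 ± 0.83).

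**Figure D5:**
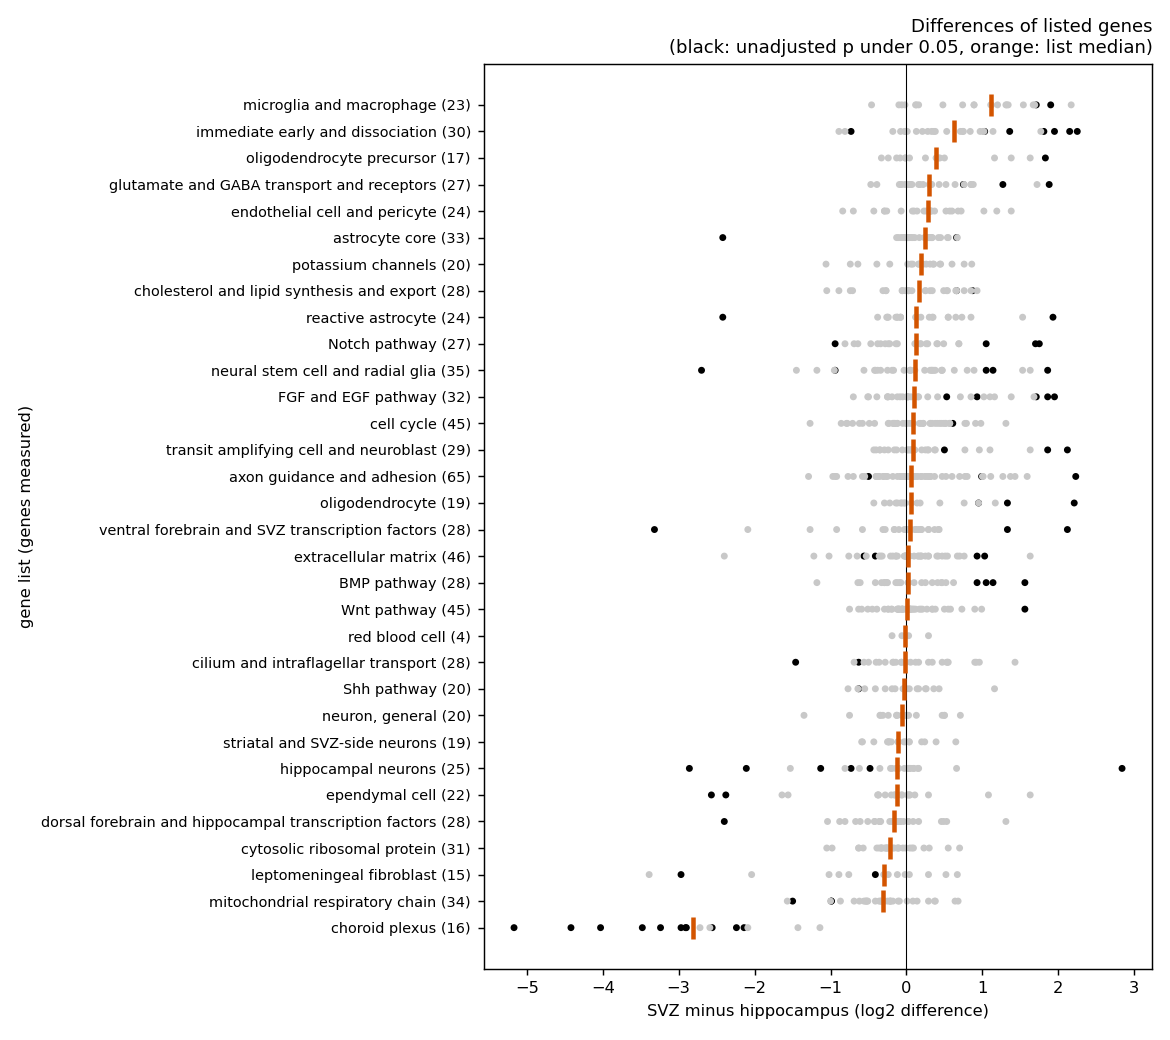
Difference between SVZ and hippocampus (log2, x axis) of every measured gene on 32 lists (y axis, number of genes in brackets), with black points at an unadjusted p under 0.05 and orange bars at list medians. The choroid plexus median lies at -2.81 and the microglia median at 1.11, and the other medians lie between -0.31 and 0.62.

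Microglia markers were present in both regions and varied between pools. Of 23 measured, 19 read higher in SVZ (median 1.11). At an unadjusted p under 0.05, 2 were higher, beside 2.28% of all genes. They were C1qa, a complement subunit (1.90 ± 0.84), and P2ry13, a purine receptor (1.71 ± 0.68). The list mean was 2.32, 3.67, 4.69, 4.26 and 5.58 on the SVZ arrays and 2.56, 3.50, 4.31, 2.48 and 3.15 on the hippocampus arrays. The regions overlapped, and the cerebellum arrays held 1.28 to 2.51. Csf1r, the receptor that sustains microglia, averaged 8.88 ± 1.97 and 7.76 ± 1.56, whereas the homeostatic markers P2ry12 (1.52 and 1.98) and Tmem119 (1.35 and 1.22) were dim. The count of 2 became 9 without SVZ 1, 4 without hippocampus 3, 1 without hippocampus 2, 1 without hippocampus 5, and 0 without SVZ 3, SVZ 4, SVZ 5, hippocampus 1 or hippocampus 4. The part of microglia in other differences was not tested.

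Among neuronal and oligodendrocyte markers, those of hippocampal neurons had the most members at an unadjusted p under 0.05. No general neuron marker of 20 and no striatal marker of 19 reached it. Of 25 hippocampal neuron markers, 5 were lower in SVZ, beside 2.35% of all genes, and 1, Wfs1, higher (median -0.12). The lower ones were Pcp4 (-2.86 ± 1.15), Ociad2 (-2.11 ± 0.81), Ncdn (-1.13 ± 0.42), Rfx3 (-0.73 ± 0.25, and 0.064 with the mean of probe sets) and the synaptic organiser gene C1ql3 (-0.48 ± 0.17). The mean of that list was 1.46 to 1.78 on the SVZ arrays, 1.71 to 2.19 on the hippocampus arrays and 1.90 to 2.13 on the cerebellum arrays. Of the 25, 4 had a mean above 3 over the 10 arrays. Slc17a7 (0.88 and 0.91), Nrgn (1.15 and 1.12) and Neurod1 (0.98 and 0.96) were near background in both regions. Whether the hippocampus pools held RNA of these neurons was not tested. Of 19 oligodendrocyte markers, 3 were higher in SVZ, beside 2.28% of all genes. They were the myelin genes Mbp (2.21 ± 0.91) and Cnp (0.95 ± 0.30) and Nkx6-2. Of 17 precursor markers, Nkx2-2 was higher (5.50 and 3.67, 1.83 ± 0.70, and 1.17 without hippocampus 1). No endothelial or pericyte marker of 24 reached that threshold, nor did any of 4 red blood cell genes.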

How the data were processed

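Expression values of FACS-isolated Gli1+ GFAP+ cells were measured on Affymetrix mouse arrays after amplification with the WT-Ovation Pico system, per the labels' protocols. The submitters' processing notes name RMA, and the deposited values that the authors made with it were read as log2 signal, since array maxima lay near 15 and no log base is stated. No detection calls were used.

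The 45101 probe sets divided into 34945 with 1 symbol in GEO's platform annotation, 932 with several and 9160 unlisted, and 34741 symbols were brought up to date through Entrez identifiers. Control probe sets (64) were dropped. A gene with several probe sets was represented by the brightest on average across the 15 arrays.

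limma 3.58.1 in R 4.3.3 fitted region on the 10 SVZ and hippocampus arrays, with Benjamini-Hochberg adjustment and a call at an adjusted p under 0.05. The cerebellum arrays were kept out because their spread is smaller. The script was tested on simulated data. Named genes were those called, the 12 largest differences each way among separated genes at an unadjusted p under 0.01, Gli1, Gfap and Ptch1, the 2 smallest p-values of each list and the 10 most alike genes. Other genes were named after their values were seen. The comparison, the 32 lists and these rules were chosen with earlier results of these data known. Of 895 listed genes, 817 were measured. Alternatives were all 15 arrays, each array or 1 pair left out, quantile or median scaling, no dim genes, other uses of probe sets, array weights, a trended robust spread, a spike-in covariate, a replicate block and other thresholds. Promoter windows came from RefSeq (GRCm38.p6). Figures were drawn with matplotlib 3.10.9.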

Additional observations from a re-analysis of the deposited data

Results flagged for a closer look

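Single values far from the others were sought in 182 sets of 5 arrays, over the 89 genes named by rule and the array measures. In 11 sets a value stood out. Chance alone gives about 1 in 20 sets, so this number is close to chance, and the values are listed without calling them unusual. Hippocampus 2 gave 5 of the 11. It read high for Agpat4 (8.54, others 6.11 to 6.78), Nr4a1 (5.13, others 1.59 to 2.19), Maml2 (3.79, others 2.36 to 2.64) and Bmpr1a (7, others 5.98 to 6.17), and low for Egfr (1.85, others 4.60 to 5.11). Gli1 stood out on 1 array of each region, at 5.06 on SVZ 3 (others 1.79 to 2.73) and 6.22 on hippocampus 5 (others 1.54 to 2.19). Tbc1d19 read 5.95 on hippocampus 3 (others 4.93 to 5.17), and Bpgm, which encodes an enzyme of red blood cells, read 5.60 on hippocampus 1 (others 7.71 to 8.44). Cdon read 1.15 on SVZ 1 (others 0.90 to 0.97), a level near background. The spike-in level of SVZ 2 was 11.04, with 12.85 to 13.10 on the other SVZ arrays.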

How the results depend on the processing

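The count of called genes was 0 in each direction under every alternative except these: all 15 arrays in the fit called 3 higher in SVZ and 1 lower, the thresholds of the series design (over 4-fold at an unadjusted p under 0.01) gave 19 higher and 26 lower, and leaving out each array in turn gave 0 higher and from 0 to 1 lower. That 1 gene was Rell1 without hippocampus 2 (-2.17, adjusted p = 0.0433) and Atp13a1, named after its values were seen, without hippocampus 4 (-1.90, adjusted p = 0.0357). The count at an unadjusted p under 0.05 was 841, and it was 1277 with all 15 arrays, 363 with dim genes left out, and 1507 for every probe set on its own. Choroid plexus members at that threshold numbered 5 to 14 as each array was left out, and 6 without hippocampus 2, the array with most of that RNA. With dim genes left out, the shared top genes numbered 428, since the lists were shorter, and the share of genes with an interval within 1 was 0.584%, or 30 of 5135. The same 5135 genes had 367 (7.15%) in the fit of all genes, with a median SE of 0.62 against 0.66, so the share fell both because dim genes left it and because the intervals widened. Leaving out each array gave shares of 47.2% to 48.9%, 1483 to 1513 shared genes, and an excess of within-region correlation of 0.0044 to 0.019, which passed only without SVZ 2. That excess was 0.016 with the mean of probe sets. The sign turned for 6 named genes, and the cause was not tested: as arrays were left out Ptch1 ran from -0.048 (without hippocampus 2) to 0.47, Gli1 from -0.59 to 0.82 and Bpgm from -0.67 to 0.046. Gli1 was 0.22 without SVZ 1, 0.14 without SVZ 4, 0.10 without SVZ 5, 0.82 without hippocampus 5 and 0.035 without SVZ 1 and hippocampus 3, and Bpgm was 0.046 without SVZ 5 and 0.038 without hippocampus 5. With the mean of probe sets Fzd2 was -0.10, Kcnc1 -0.015, Bpgm 0.18 and Rfx3 0.064, against 0.73, 0.45, -0.19 and -0.73 for the chosen probe sets. With the replicate number as a block, 0 genes were called in each direction, 914 had an unadjusted p under 0.05, and 8 choroid plexus members did. Arrays of the same number did not deviate together throughout (correlations 0.069, 0.11, 0.019, -0.018 and 0.0053, and only numbers 1 and 2 matched best with their own), so the block is not read as pairing. Alternatives for the choroid plexus count and for the count at an unadjusted p were added after the data were seen.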
